A study of Mus musculus with 10 samples.

Results

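The genes described here encode the inhibitory glycine receptor and the scaffold that anchors it: the alpha subunit genes Glra1, Glra2 and Glra3, the beta subunit gene Glrb and the gephyrin gene Gphn. They are 5 of the 48526 gene rows of the deposited table and were found by matching the table's identifiers to these symbols. The libraries came from the dentate gyrus, the hippocampal field that holds the granule neurons, microdissected from 8-week-old C57Bl/6 mice. Of these, 5 had been injected on either side with 1 µl of a serotype 9 adeno-associated virus (AAV) carrying Sox11, and 5 control mice had received AAV of the same serotype carrying GFP. All mice thus carried an AAV, and the promoter of the virus, the share of cells transduced and the interval to dissection were not given in the sources used here. Sox11 is a transcription factor of newborn neurons, and the comparison asks which transcripts differ when the virus supplies it.

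Glycine receptors are chloride channels of 5 subunits that open when glycine binds. Alpha subunits can form channels by themselves, whereas the beta subunit joins alpha subunits and carries the loop that binds gephyrin, so that receptors which hold beta can be held at synapses. The alpha2 subunit is known as the main form of the developing brain and alpha1 as the adult form of spinal cord and brainstem. In the hippocampus glycine receptors are known mostly for tonic inhibition outside synapses, and gephyrin there also holds GABA-A receptors at inhibitory synapses.

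The 3 alpha subunit genes resemble each other, and the stretch in which they are hardest to tell apart is shown because the results turn on a difference between Glra2 and Glra3. The capitals mark the 25 bases that the coding sequences of all 3 alpha genes share, at the start of the first membrane-spanning segment, within 80 bases of coding sequence (GENCODE M21 on GRCm38, sense strand). The windows span coding positions 735 to 814 in Glra1, 753 to 832 in Glra2 and 798 to 877 in Glra3.
Glra1: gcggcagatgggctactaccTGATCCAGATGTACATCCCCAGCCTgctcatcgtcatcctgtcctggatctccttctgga
Glra2: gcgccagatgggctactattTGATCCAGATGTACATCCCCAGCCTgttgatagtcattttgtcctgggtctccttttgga
Glra3: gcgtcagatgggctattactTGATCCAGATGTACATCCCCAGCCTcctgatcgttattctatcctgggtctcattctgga
Over the whole coding sequence Glra2 and Glra3 were identical at 76.2% of aligned bases, Glra1 and Glra3 at 77.2%, and Glra1 and Glra2 at 74.5%. Glrb shared 64.1% to 66.5% of aligned bases with the alpha genes. The longest run shared by any pair of alpha genes was 26 bases. Of the words of 31 bases in its annotated transcripts, 99.39% in Glra2, 99.89% in Glra3, 96.18% in Glrb, 96.9% in Gphn and 95.45% in Glra1 occurred in no other gene.

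Between 45100154 and 68769808 reads were assigned to genes per library. Libraries are named by the numbers in the deposited table, which differ from those in the sample titles. Values are normalized counts, which are reads divided by the authors' factor for each library. Sox11 itself lay between 9803 and 20434 normalized counts in the Sox11 libraries, against 1364 to 1634 in the GFP libraries. Of 17007 genes tested with limma, 19% passed an adjusted p of 0.05, with 9.65% higher and 9.36% lower in Sox11 libraries. In 15.9% of the tested genes the 2 groups of libraries did not overlap, with 8.63% higher and 7.29% lower in every Sox11 library. Of the 4 glycine receptor and gephyrin genes that passed the filter, 1 was higher, 2 were lower, and 1 did not pass the threshold. The groups did not overlap for 3 of them. The genes were chosen with earlier results of these data known, so these counts against the shares are no test. Glra1 was under the filter, which asked for a mean of 10 or more normalized counts. The granule neuron marker Prox1 was high in every library, at 15349 to 22834 normalized counts in Sox11 libraries and 13354 to 20946 in GFP libraries. The marker genes of choroid plexus epithelium, a tissue outside the dentate gyrus, summed to 757 to 2404 normalized counts in Sox11 libraries. In GFP libraries they summed to 1657 to 382674, with the highest value in GFP 3 and the next at 3284.

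**Figure D1:**
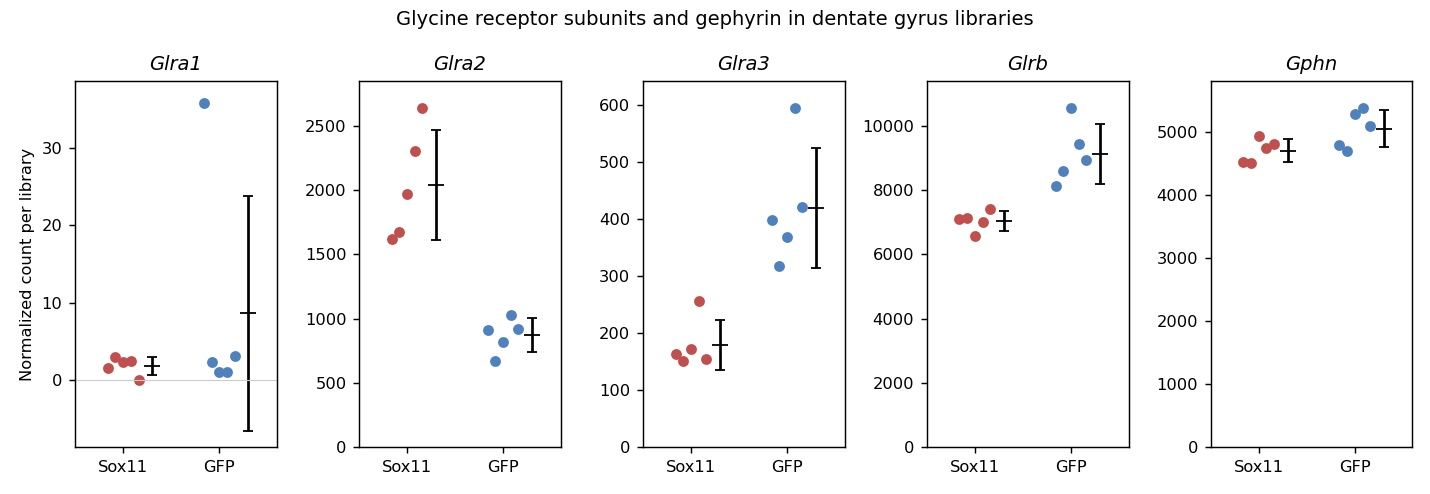
Normalized counts (vertical axes, each with its own scale) of the 5 genes in each library, with Sox11 libraries left in red and GFP libraries right in blue; the black marks are the mean ± SD of 5 libraries. Glra2 was higher in all Sox11 libraries, Glra3 and Glrb were lower in all of them, and Gphn overlapped between the groups.

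Glra2, the gene of the alpha2 subunit, was more abundant in the dentate gyrus that had received Sox11. It counted 1621, 1674, 1967, 2304 and 2639 normalized counts in Sox11 1, 2, 3, 6 and 7. It counted 913, 671, 820, 1026 and 919 in GFP 1, 3, 4, 5 and 6. The lowest Sox11 library thus lay above the highest GFP library, and within the Sox11 group the libraries numbered 6 and 7 were highest. Sox11 6 and 7 also held the most Prox1 of their group, 22834 and 21910 normalized counts, in the reverse order. GFP 5 was the highest GFP library for Glra2 and for Prox1. The means were 2041 ± 431 normalized counts in Sox11 libraries and 870.0 ± 133 in GFP libraries (SD, n = 5 each). The log2 fold change was 1.22 (SE 0.15, 95% confidence interval 0.89 to 1.55), which is 2.33-fold higher in Sox11 libraries, with a limma adjusted p of 0.000487. Of all tested genes 1.24% passed the threshold with a log2 fold change of at least 1 in size, and Glra2 and Glra3 were both among them. Glra2 ranked 134 of 17007 by increase. The gene (ENSMUSG00000018589) spans chromosome X, 165129017 to 165327393, minus strand (GRCm38), no other annotated gene overlaps its exons, and between 1686 and 2586 reads per Sox11 library and 583 to 1009 per GFP library lay behind these values.

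Glra3, the gene of the alpha3 subunit, went the other way. It counted 163, 151, 171, 256 and 153 normalized counts in Sox11 1, 2, 3, 6 and 7. In GFP 1, 3, 4, 5 and 6 it counted 399, 317, 368, 595 and 421. The groups did not overlap, and Sox11 6 and GFP 5 were the highest of their groups. The same libraries were highest of their groups for Prox1, with 22834 normalized counts in Sox11 6 and 20946 in GFP 5. Sox11 7 held nearly as much Prox1, 21910.4 normalized counts, with a Glra3 value among the lowest. The means of Glra3 were 179 ± 43.7 normalized counts in Sox11 libraries and 419.9 ± 105 in GFP libraries (SD, n = 5 each). The log2 fold change was -1.22 (SE 0.18, 95% confidence interval -1.62 to -0.82), which is 2.33-fold lower in Sox11 libraries, with a limma adjusted p of 0.00103. Glra3 ranked 47 of 17007 by decrease. It rested on 145 to 225 reads per Sox11 library and 275 to 585 per GFP library, fewer than Glra2, so that its relative counting error was larger. The gene (ENSMUSG00000038257) spans chromosome 8, 55940460 to 56130070, plus strand (GRCm38), with no other annotated gene over its exons.

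Glra1, the gene of the alpha1 subunit, was close to undetected apart from 1 control library. It counted 1.58, 2.98, 2.28, 2.44 and 0 normalized counts in Sox11 1, 2, 3, 6 and 7, which are 2, 3, 3, 2 and 0 reads. GFP 1 held 35.8 normalized counts from 37 reads, whereas GFP 3, 4, 5 and 6 held 2.30, 1.10, 1.02 and 3.12 normalized counts from 1 to 3 reads. The groups therefore differed by 1 library, and every Sox11 library lay at or under 3 reads, so no ratio of the groups is given. The fitted difference of log2(normalized count + 1), which depends on the pseudocount and is no bound, was -0.84 in a limma fit with no filter over 28745 genes (SE 0.73, adjusted p = 0.621), and -0.09 without GFP 1 (adjusted p = 0.938). The gene (ENSMUSG00000000263) spans chromosome 11, 55514238 to 55608198, minus strand (GRCm38), and 5.84% of its exonic bases overlap a gene on the other strand. Glra4, the remaining alpha subunit gene of the mouse, reached at most 5.54 normalized counts (Sox11 1) in Sox11 libraries and 2.90 (GFP 1) in GFP libraries, and the groups overlapped.

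Since the alpha genes differ in length, their levels were set side by side as normalized counts per kilobase of exon. On that scale Glra2 stood at 648 ± 137 in Sox11 libraries and 276 ± 42.1 in GFP libraries. Glra3 stood at 19.4 ± 4.75 in Sox11 libraries and 45.6 ± 11.4 in GFP libraries (SD, n = 5 each). Glra2 was thus the leading alpha transcript in either group, and its share differed. Of the summed alpha level per kilobase, Glra2 made up 96.6%, 96.8%, 97.0%, 96.2% and 98.0% in Sox11 1, 2, 3, 6 and 7, against 83.3%, 85.8%, 86.6%, 83.4% and 86.1% in GFP 1, 3, 4, 5 and 6. Glra3 made up 1.95% to 3.65% in Sox11 libraries and 12.5% to 16.5% in GFP libraries, without overlap. That separation follows from Glra2 being higher and Glra3 lower in every Sox11 library. The share of Glra1 was 0.125% on average in Sox11 libraries and 1.06% in GFP libraries, of which GFP 1 held 4.26%. The ratio of Glra2 to Glra3 was 34.3 ± 9.35 in Sox11 libraries and 6.16 ± 0.653 in GFP libraries (SD, n = 5 each). These shares combine genes chosen with results known and carry no test. With the longest transcript as the length in place of all exons, the Glra2 share was 95.7% in Sox11 libraries and 80.4% in GFP libraries. The ratio of Glra2 to Glra3 was then 24.3 in Sox11 libraries and 4.36 in GFP libraries.

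**Figure D2:**
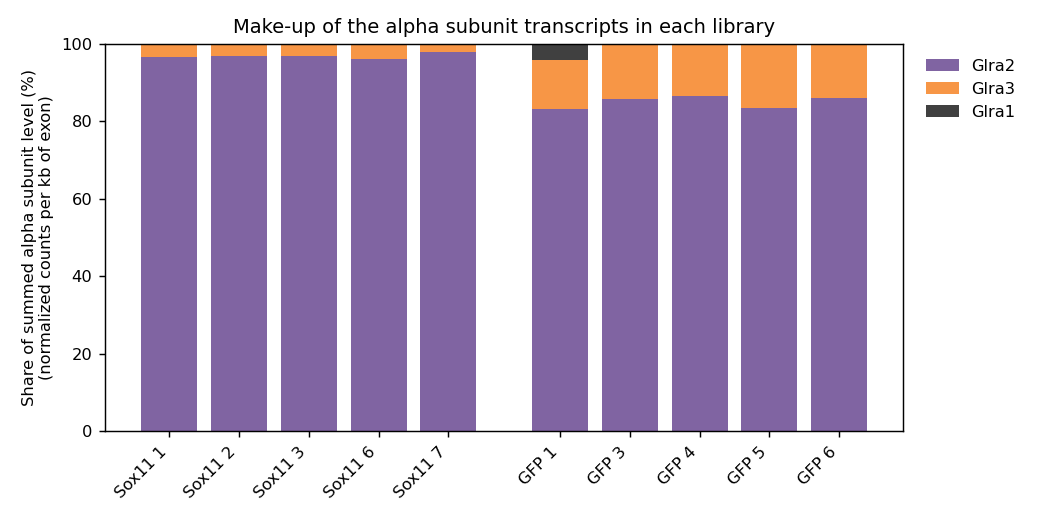
Share (percent, vertical axis) of Glra2, Glra3 and Glra1 in the summed normalized counts per kilobase of exon of the 3 alpha subunit genes, 1 bar per library, Sox11 libraries left and GFP libraries right. Glra3 took 1.95% to 3.65% of each Sox11 bar and 12.5% to 16.5% of each GFP bar, and Glra1 is visible mainly in GFP 1.

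Glrb, the gene of the beta subunit that links receptors to gephyrin, was lower in Sox11 libraries by less than either alpha gene differed. It counted 7099, 7145, 6560, 7020 and 7410 normalized counts in Sox11 1, 2, 3, 6 and 7. The GFP libraries 1, 3, 4, 5 and 6 held 8131, 8583, 10556, 9444 and 8950. Every Sox11 library lay under every GFP library, and GFP 4 was the highest. The means were 7047 ± 309 normalized counts in Sox11 libraries and 9133 ± 930.4 in GFP libraries (SD, n = 5 each). The log2 fold change was -0.37 (SE 0.07, 95% confidence interval -0.52 to -0.22), a percent change of -22.6%, with a limma adjusted p of 0.00321. Among the libraries numbered 1 to 3 alone it was -0.27 with an adjusted p of 0.0539, which misses the threshold. Glrb ranked 1294 of 17007 by decrease, against 47 for Glra3. The gene (ENSMUSG00000028020) spans chromosome 3, 80843599 to 80913660, minus strand (GRCm38).

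Gphn, whose product gephyrin forms the scaffold under inhibitory synapses, did not pass the threshold. Its values were 4527, 4510.5, 4943, 4751 and 4822 normalized counts in Sox11 1, 2, 3, 6 and 7. They were 4807, 4708, 5289, 5386 and 5103 in GFP 1, 3, 4, 5 and 6. The groups overlapped. The means were 4711 ± 188 normalized counts in Sox11 libraries and 5059 ± 295 in GFP libraries (SD, n = 5 each), with a log2 fold change of -0.10 (SE 0.05, 95% confidence interval -0.21 to 0.01) and a limma adjusted p of 0.182. The interval leaves room for a decrease of up to 0.21 on the log2 scale. The gene (ENSMUSG00000047454) spans chromosome 12, 78226379 to 78684772, plus strand (GRCm38), and 3.92% of its exonic bases overlap a gene on the other strand.

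Per kilobase of exon the order of the 5 genes was the same in the 2 groups, with Glrb first, then Gphn, Glra2, Glra3 and Glra1. Glrb stood at 1514 ± 66.4 normalized counts per kilobase in Sox11 libraries and 1962 ± 199.9 in GFP libraries. Gphn stood at 1257 ± 50.2 in Sox11 libraries and 1349 ± 78.7 in GFP libraries (SD, n = 5 each). Within each group no neighbours in that order overlapped between libraries. For every 100 units of Glrb, the alpha transcripts summed to 44.1 ± 8.47 units in Sox11 libraries and 16.7 ± 3.16 in GFP libraries. The groups could not overlap in this ratio, because the alpha sum was higher and Glrb lower in every Sox11 library, so it is no further result. The lowest Sox11 library stood at 34.9 and the highest GFP library at 19.9. Gphn stood at 83.2 ± 6.19 units per 100 of Glrb in Sox11 libraries and 69.1 ± 4.26 in GFP libraries (SD, n = 5 each). The mean of Gphn itself was not higher in Sox11 libraries, so the higher ratio follows from the lower Glrb and is no further result. The ratios depend on the length used. With the longest transcript as length the alpha sum was 29.0 units per 100 of Glrb in Sox11 libraries and 11.5 in GFP libraries. Gphn was then at 56.8 units in Sox11 libraries and 47.2 in GFP libraries. These are transcript ratios in tissue and say nothing of the subunit make-up of any receptor.

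The tissue was sequenced in bulk, so fewer cells of a type and less RNA per cell cannot be told apart. Marker counts from the fit of all 10 libraries stand against 9.65% of all tested genes higher and 9.36% lower in Sox11 libraries. Immature neuron markers differed beside Glra2. Of 12 such markers 8 were higher in Sox11 libraries and the other 4 did not pass the threshold, and with Sox11 itself left out 7 of 11 were higher. Without Sox11 the markers summed to 68498 to 86811 normalized counts in Sox11 libraries, against 36518 to 46457 in GFP libraries. Dcx, a microtubule protein of newborn neurons, averaged 4292 ± 820 normalized counts in Sox11 libraries and 1242 ± 50.1 in GFP libraries (SD, n = 5 each). The 4 immature neuron markers that did not pass had log2 fold changes of -0.17 for Sox4, 0.0065 for Neurod1, 0.06 for Calb2 and 0.16 for Igfbpl1. Of 15 interneuron markers 5 were lower in Sox11 libraries and the other 10 did not pass. In libraries 1 to 3 alone 2 were lower (median log2 fold change -0.03), against 406 of all 17174 genes tested there. In libraries 4 to 7 alone 10 were lower (median -0.49), against 1351 of 16672. The interneuron marker sums overlapped between the groups, at 62166 to 77059 normalized counts in Sox11 libraries and 72855 to 88411 in GFP libraries. Granule neuron markers summed to 79853 to 109946 normalized counts in Sox11 libraries and 74872 to 104159 in GFP libraries, with 2 of 10 higher and 3 lower. Without GFP 1, 3, 4 or 6 or Sox11 6 or 7 no granule marker was called higher, and without GFP 1, 5 or 6 or Sox11 1, 2, 3 or 7 only 1 was lower. Of 8 mossy cell markers 3 were lower in Sox11 libraries, of 12 astrocyte markers 4 were higher, and of 11 microglia markers 4 were higher. The astrocyte count was 2 without GFP 6 or Sox11 2 or 7. The microglia count was 2 without GFP 1, 5 or 6 or Sox11 1, 2 or 7. With 1 library left out, 1282 to 1584 of all tested genes were higher and 1175 to 1701 lower. With none left out, 1642 were higher and 1592 lower. Astrocyte markers summed to 341187 to 421705 normalized counts in Sox11 libraries and 311109 to 392821 in GFP libraries. These sums mostly follow 1 gene that did not pass, Slc1a2, which averaged 219696 in Sox11 libraries and 205204 in GFP libraries. Microglia markers summed to 25598 to 30990 in Sox11 libraries and 25412 to 30547 in GFP libraries. Mossy cell markers summed to 9713 to 13241 in Sox11 libraries and 11537 to 14524 in GFP libraries. With Prox1 as a covariate, a fit chosen after seeing the data, the log2 fold changes were 1.04 for Glra2, -1.41 for Glra3 and -0.40 for Glrb. No marker of these lists was at 0 in a whole group, and the part of these cell types in the differences of the receptor genes was not tested.

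The promoters of Glra2 and Glra3 are shown because the genes differed in opposite directions and the supplied protein is a transcription factor. The sequences are the 250 bases before the annotated start, from RefSeq on GRCm38.p6, each on the strand of its gene, at chrX:165327394-165327643 (minus strand) and chr8:55940168-55940417 (plus strand).
Glra2: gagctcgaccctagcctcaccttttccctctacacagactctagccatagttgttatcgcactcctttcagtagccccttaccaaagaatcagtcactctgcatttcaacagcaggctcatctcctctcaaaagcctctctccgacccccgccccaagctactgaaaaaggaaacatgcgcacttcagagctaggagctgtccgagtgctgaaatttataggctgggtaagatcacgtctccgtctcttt
Glra3: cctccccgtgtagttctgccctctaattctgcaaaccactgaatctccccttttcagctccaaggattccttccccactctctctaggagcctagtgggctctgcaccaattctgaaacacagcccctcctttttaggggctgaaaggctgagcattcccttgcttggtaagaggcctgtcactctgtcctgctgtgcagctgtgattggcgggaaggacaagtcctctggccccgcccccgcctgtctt
The core that SOX proteins bind was searched on both strands in 8 spellings, which were AACAAAG and also AACAATG, then ATCAAAG and also ATCAATG, then TACAAAG and also TACAATG, then TTCAAAG and also TTCAATG. None occurred in these windows of Glra2, Glra3, Glrb or Gphn, and 21.8% of 32851 promoter windows of that length held at least 1. No capitals are therefore marked. The base composition was 50.4% G and C for Glra2 and 56.0% for Glra3, against a median of 52.4% over all windows. Absence of these letters from a window says nothing about binding elsewhere, and binding was not measured.

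Among the genes that bind gephyrin or organise the inhibitory postsynapse with it, 2 of 19 passed the threshold, against 19% of all tested genes. In Sox11 libraries 1 was higher, 1 was lower and 17 did not pass, and the median log2 fold change was 0.02, against -0.01 over all tested genes. Mdga1, which binds neuroligins and limits inhibitory synapses, averaged 4250 ± 395 normalized counts in Sox11 libraries and 3262 ± 307 in GFP libraries, a log2 fold change of 0.38 (SE 0.08, limma adjusted p = 0.00526). Dynll2, a dynein light chain that binds gephyrin, had a log2 fold change of -0.21 (limma adjusted p = 0.0452). Its call was lost without GFP 1, 4, 5 or 6 or Sox11 2, 6 or 7 (adjusted p 0.0832 to 0.0976). The Mdga1 call held with each library left out. Without GFP 3 the list held 2 higher and 3 lower genes, against 1584 higher and 1701 lower of all 16913 tested there. By division, 2 genes of the list were higher in libraries 1 to 3 alone, against 563 of all 17174. In libraries 4 to 7 alone 5 were lower, against 1351 of all 16672.

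Of 13 genes for the transport, packaging, synthesis and cleavage of glycine, 12 were tested, 2 were higher in Sox11 libraries, 1 was lower and 9 did not pass, with a median log2 fold change of 0.03. That is 3 of 12, against 19% of all tested genes. With the column-number division as a covariate 4 were higher and 3 lower, against 2067 and 1981 of all 17007 genes. With DESeq2 3 were higher and 2 lower, against 2042 and 2038. Amt and Phgdh, which encode an enzyme of glycine cleavage and the first enzyme of serine synthesis, had log2 fold changes of 0.23 and 0.18 (limma adjusted p = 0.0363 and 0.0479). Dld, the lipoamide dehydrogenase that the glycine cleavage system shares with other enzymes, had a log2 fold change of -0.26 (limma adjusted p = 0.0270). Each of these calls was lost when some single libraries were left out. The Amt call was lost without GFP 3, 4 or 5 or Sox11 1, 3, 6 or 7 (adjusted p 0.0588 to 0.0872), and the Phgdh call without GFP 1, 3, 4 or 6 or Sox11 1, 2, 3 or 6 (0.0611 to 0.106). The Dld call was lost without GFP 4 or 5 or Sox11 1, 2 or 3 (0.0560 to 0.0669). Slc6a5, the neuronal glycine transporter of glycinergic terminals, stood at 4.63 ± 2.11 normalized counts in Sox11 libraries and 9.46 ± 3.46 in GFP libraries (SD, n = 5 each) and was under the filter.

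Gephyrin also makes the molybdenum cofactor of several enzymes. Of 9 genes of that pathway and the enzymes that use it, 8 were tested. Of these 0 passed the limma threshold, against 19% of all tested genes, and 2 had an unadjusted p under 0.05. On recovered reads edgeR and DESeq2 each called 1 higher, as did limma with quantile normalization or with the column-number division as a covariate. Over all 17007 genes these fits called 1749, 2042, 1638 and 2067 higher, in that order. Mocs2, a subunit of the cofactor synthase and the gene of lowest p, had a log2 fold change of 0.12 and a limma adjusted p of 0.0868. It was the gene called by those alternatives, with adjusted p-values of 0.0435 under quantile normalization, 0.00942 with the covariate and 0.0355 with DESeq2. GABA-A receptor subunits are the other chloride channels of the same receptor superfamily. Of 19 subunit genes 15 were tested, 1 was higher, 4 were lower and 10 did not pass, with a median log2 fold change of -0.21. Over all tested genes 9.65% were higher and 9.36% lower. With DESeq2 6 of the 15 subunit genes were lower, against 2038 of all 17007 genes. In libraries 1 to 3 alone 1 of 16 was lower, against 406 of all 17174 genes tested there. In libraries 4 to 7 alone 3 of 13 were lower, against 1351 of 16672. Gabra5, a subunit of tonic receptors, was the higher one, at 20198 ± 2588 normalized counts in Sox11 libraries and 14465 ± 1380 in GFP libraries (SD, n = 5 each). Gabrd, another subunit of tonic receptors, averaged 1458 ± 155 normalized counts in Sox11 libraries and 2082 ± 276 in GFP libraries, and Gabra4 averaged 7226 ± 1115 in Sox11 libraries and 10024 ± 641 in GFP libraries.

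**Figure D3:**
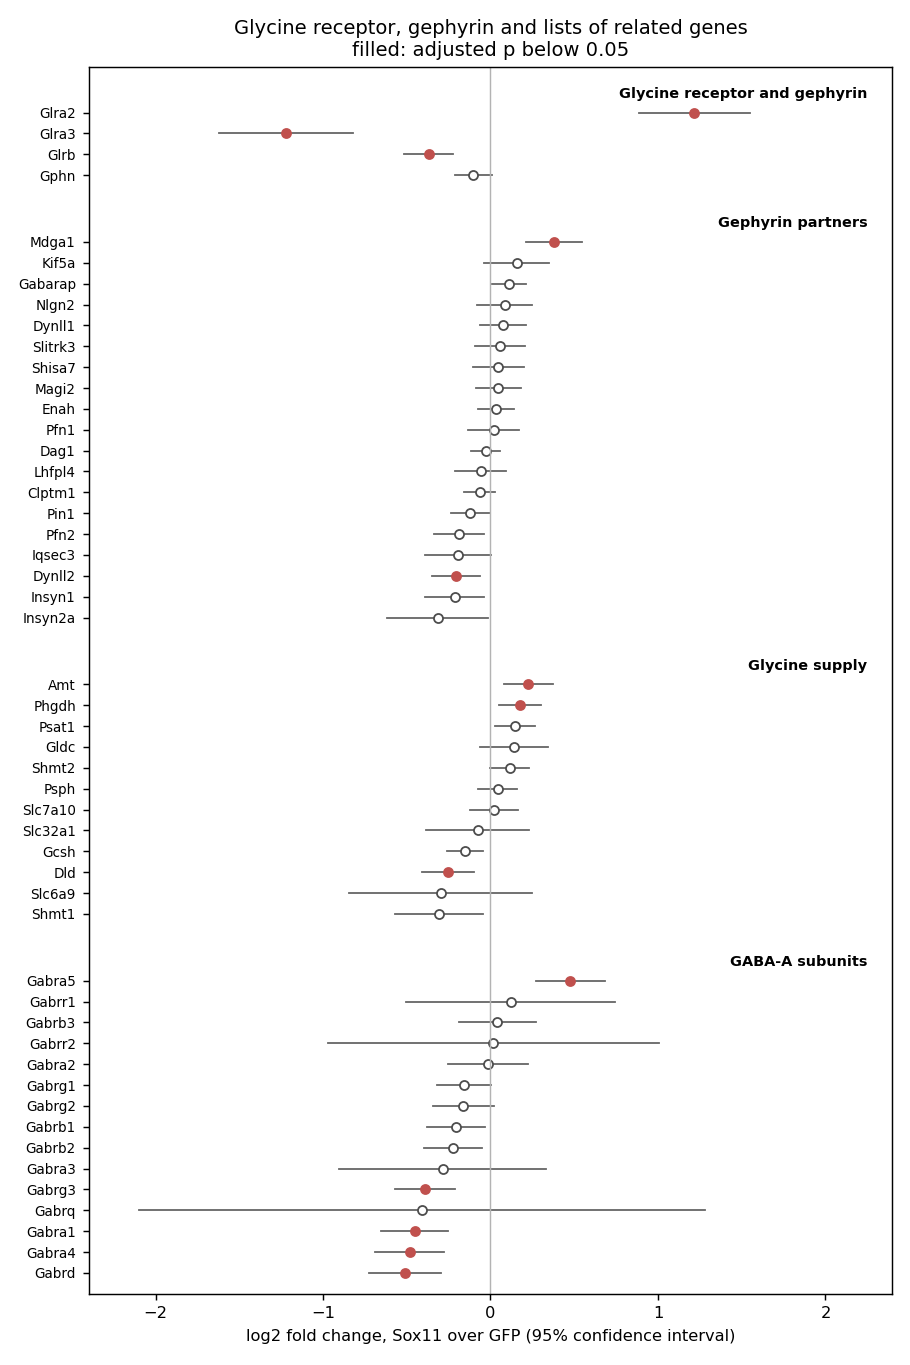
Log2 fold change of Sox11 over GFP (horizontal axis) with its 95% confidence interval for the tested glycine receptor and gephyrin genes, then for gephyrin partners, glycine supply and GABA-A subunits; filled circles passed the limma threshold. Glra2 at 1.22 and Glra3 at -1.22 lie outside the fold changes of every other gene drawn, of which the highest is Gabra5 at 0.48 and the lowest Gabrd at -0.51.

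The genes whose pattern over the 10 libraries lay nearest to each of the 3 called genes were found among 14254 genes whose mean reached 50 normalized counts, as the root mean square distance of centred log2 values. For Glra2 these were Gm37233, a noncoding RNA gene (distance 0.137), Jpt1 (0.146) and the tubulin gene Tubb2b (0.156). Their log2 fold changes were 1.21, 1.20 and 1.25. For Glra3 the nearest were Zfp804b (0.154), the erythropoietin receptor gene Epor (0.158) and Mfsd13b (0.227), with log2 fold changes of -1.05, -1.28 and -1.19. For Glrb they were Strn (0.0376), Smim10l1 (0.0399) and Gria3, a glutamate receptor subunit gene (0.0472), with log2 fold changes of -0.33, -0.34 and -0.38. Nearness here includes the difference between the groups.

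**Figure D4:**
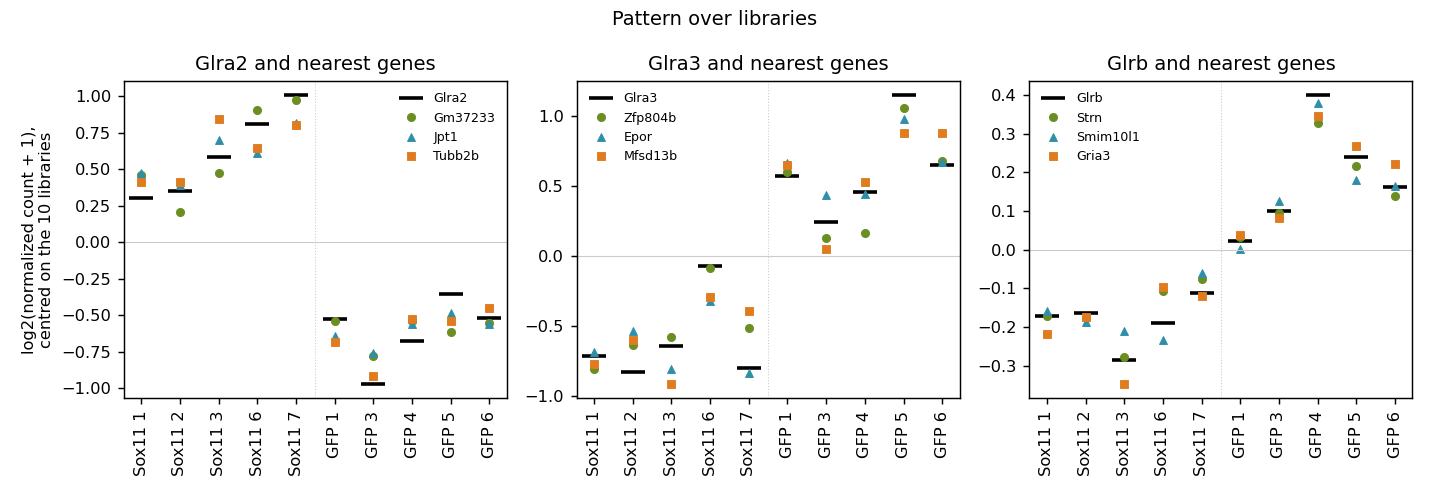
Centred log2(normalized count + 1) (vertical axes) of Glra2, Glra3 and Glrb (black bars) and the 3 genes nearest to each (coloured symbols) in each library, Sox11 libraries left of the dotted line and GFP libraries right. Glra3 is highest of its group in Sox11 6 and in GFP 5, and Zfp804b is highest in the same libraries.

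Glra2 and Glra3 passed the threshold in either division of the libraries by their number in the table. Among libraries 1 to 3 alone (3 Sox11 and 2 GFP) the log2 fold change was 1.16 for Glra2 (limma adjusted p = 0.0277) and -1.13 for Glra3 (0.0266). Among libraries 4 to 7 alone (2 Sox11 and 3 GFP) it was 1.42 for Glra2 (adjusted p = 0.000274), -1.18 for Glra3 (0.0311) and -0.42 for Glrb (0.00942). A limma test of the difference between these divisions gave adjusted p-values of 0.547 for Glra2, 0.956 for Glra3, 0.506 for Glrb and 0.514 for Gphn. That test called 1 gene of all tested. It rests on 2 or 3 libraries per group and division, so these values do not show that the divisions agree.

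**Figure D5:**
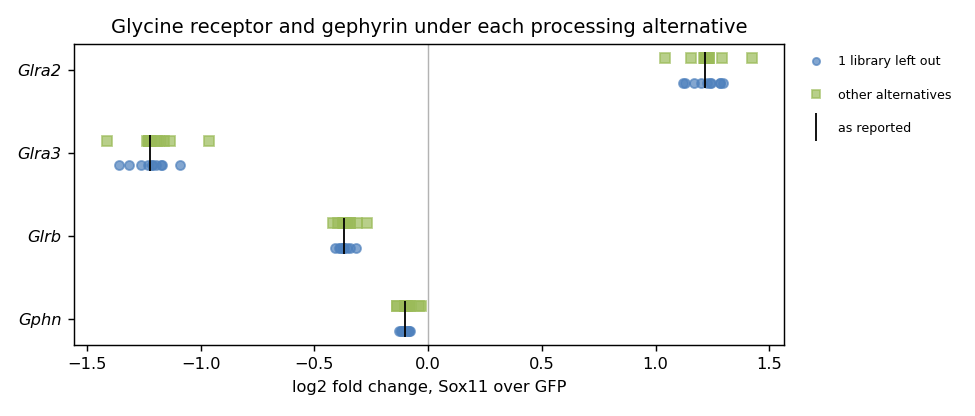
Log2 fold change of Sox11 over GFP (horizontal axis) of the 4 tested genes under each processing alternative; blue circles leave out 1 library, green squares are the other alternatives and the black line is the reported value. Glra2 stays between 1.04 and 1.42, Glra3 between -1.41 and -0.96, and Glrb between -0.42 and -0.27.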

How the data were processed

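Poly(A) RNA of 10 dentate gyrus samples from separate mice, 5 with Sox11 and 5 with GFP, was, per the labels' protocols, sequenced with a stranded kit. GRCm38, STAR 2.5.2a, featureCounts 1.5.1 of Subread, R 3.3.1 with DESeq2 1.12.3, cutadapt 1.9.1 and bcl2fastq 1.8.4 are named in the submitters' processing notes. The annotation release, the strand setting and the treatment of multi-mapping reads were not given in the sources used here, so overlap with opposite-strand genes cannot be resolved. The authors deposited normalized counts, a signal per gene made by dividing reads by a library factor. Each value above 0 was a whole multiple of 1 read within 0.01 reads (100% of values), and edgeR on the recovered reads called 3272 genes. Depth was 45100154 to 68769808 reads per library.

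Values were taken as log2(normalized count + 1), which understates changes of low genes. Genes with a mean of at least 10 were tested with limma 3.58.1 (trend, robust; R 4.3.3), Benjamini-Hochberg adjustment over 17007 genes and a threshold of 0.05. The script was tested on simulated data. Limma p-values set each group difference against the spread between these mice within the groups, which limma moderates across genes. Alternatives used edgeR 4.0.16 and DESeq2 1.42.0 on recovered reads, other pseudocounts, filters and scalings, column-number divisions, a column-number block added after seeing the data and each library left out. GENCODE M21 gave symbols and exon lengths for 48058 of 48526 identifiers. Figures and tables were made with matplotlib 3.10.9, Biopython 1.88, pandas 2.3.3 and numpy 2.4.6 in Python 3.11.15. RefSeq promoter windows matched 4 of the 5 genes, all but Glra1.

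The genes and lists were chosen with earlier results of these data known. Named beside them were Sox11, Glra4, up to 3 genes of lowest p past the threshold in each related list (the gene of lowest p where none passed) and the 3 nearest genes of each called gene. Dcx, Prox1, Slc6a5, Slc1a2, Sox4, Neurod1, Calb2 and Igfbpl1 were named after their values were seen. A gene of the gephyrin partner list is not reported here and was left out of its counts.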

Additional observations from a re-analysis of the deposited data

Results flagged for a closer look

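Of 50 groups of libraries checked, 7 held a library whose gap to the nearest other was above 0.71 of the group's range, and chance flags about 1 in 20 groups. Glra3 stood at 255.7 normalized counts in Sox11 6, against 151 to 171 in the other Sox11 libraries. Glra4 stood at 5.54 normalized counts in Sox11 1, against 0 to 0.993 in the others. Glra1 stood at 35.8 normalized counts in GFP 1, against 1.02 to 3.12 in the other GFP libraries, and its share of the alpha level was 4.26% there, against 0.108% to 0.384%. The Sox11 gene itself stood at 20434 normalized counts in Sox11 3, against 9803 to 11591 in the other Sox11 libraries, and at 1634 in GFP 5, against 1364 to 1399 in the other GFP libraries. The choroid plexus markers summed to 382674 normalized counts in GFP 3, against 1657 to 3284 in the other GFP libraries. Glra1 is the gene whose value 1 library sets: without GFP 1 its fitted log2 difference was -0.09. For Glra3 the log2 fold change with each library left out lay between -1.36 and -1.09.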

How the results depend on the processing

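Glra2, Glra3 and Glrb kept their direction under every alternative that was run, and Glra2 and Glra3 kept their call under all but the replicate block described here. With each library left out, the log2 fold change was 1.119 to 1.295 for Glra2, -1.36 to -1.09 for Glra3, -0.41 to -0.32 for Glrb, and -0.13 to -0.08 for Gphn, the fitted difference of Glra1 was -1.14 to -0.09, and 2487 to 3285 genes passed the threshold. In libraries 1 to 3 alone, with 5 libraries in the fit, 969 genes passed, 563 higher and 406 lower, and Glrb stood at -0.27 (limma adjusted p = 0.0539). Gphn missed the threshold under all alternatives (adjusted p 0.0631 to 0.796). With the longest transcript as length the Glra2 share was 95.7% in Sox11 libraries and 80.4% in GFP libraries. DESeq2 on recovered reads called 4080 genes, and limma with the column-number division as a covariate called 4048. For Glra1, which was under the filter, the fits with a minimum mean, quantile normalization, edgeR, DESeq2 and the divisions alone were not run. Among the related genes, Mdga1 lost its call in libraries 4 to 7 alone (adjusted p = 0.105), Gabrd in either division alone (0.0502 and 0.0868), and Dynll2 with edgeR (0.0644), under quantile normalization (0.237) and in libraries 1 to 3 alone (0.561). Phgdh lost it in libraries 4 to 7 alone (0.643), Amt in libraries 1 to 3 alone (0.274), and Dld in libraries 1 to 3 (0.0613) and 4 to 7 alone (0.212). The column numbers of the table cannot be matched to the replicate numbers of the sample titles, so no fit was paired by title. A fit with the column number as a replicate block was chosen after seeing the data; its effects rest on numbers 1, 3 and 6, the 3 that occur in both groups. It called 49 genes, 45 higher and 4 lower, with log2 fold changes of 1.23 for Glra2 (adjusted p = 0.0617), -0.96 for Glra3 (0.0882) and -0.31 for Glrb (0.127). The deviations of same-numbered libraries from their group means correlated across genes at 0.194, 0.0675 and 0.415 for numbers 1, 3 and 6. In no pair were the 2 libraries each other's best match. These 3 pairs are too few to show whether the numbers pair the samples, and the reported fit takes no pairing. Counts of Glra1 and Glra4 are too few to show a difference at this depth, and calls of related genes that were lost without 1 library are named beside their values.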
